A study of Mus musculus with 48 samples.

Results

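Chemokines are small secreted proteins that draw leukocytes along a gradient by binding receptors on their surface. The CXC members Cxcl1, Cxcl2, Cxcl3 and Cxcl5 act through CXCR2 and mainly attract neutrophils, whereas Ccl2 and Ccl7 act through CCR2 and mainly attract monocytes. Tumor cells can make both kinds themselves, often under the control of NF-kappaB, and 4T1, a mouse mammary carcinoma line, is known for the large number of neutrophils its tumors raise in the host.

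The 10 chemokines described here, of 18964 protein-coding genes on the arrays, were those 4 neutrophil attractants, the 2 monocyte attractants, and 4 that attract lymphocytes and dendritic cells. The last 4 were Ccl5, Ccl20, which binds CCR6, and Cxcl16 and Cx3cl1, which are made as membrane-bound proteins that bind CXCR6 and CX3CR1. Each gene was read from a probe set that carries its symbol alone. All 10 passed the filter on low intensity, Ccl7 with the lowest mean, 3.31 on the log2 scale against a limit of 3.11. That mean is over all arrays, and Cxcl3, with a mean of 3.89, passed through the arrays where it was high.

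RNA was measured on 48 arrays of cultured 4T1 cells. The parental lines were tagged with GFP and firefly luciferase (4T1-GFP/fL, 4 arrays) or with mCherry and Renilla luciferase (4T1-mCh/rL, 4 arrays). A further 40 arrays came from 13 sub-clones, ex vivo cultures of tumors of female BALB/c mice: 2 from mammary fat pad tumors at day 28 (MFP), 4 from injected axillary lymph node tumors at days 7 and 14 (AxLN), 4 from lung metastases of AxLN-injected mice at days 14, 36 and 43 (AxLN-LuM), and 3 from lung metastases after tail vein injection at days 14 and 38 (TV-LuM). The reporter was GFP/fL in MFP and mCh/rL in AxLN and AxLN-LuM, so that between these groups reporter and injection site cannot be told apart, and for TV-LuM the labels name no reporter. The days also differed between the groups, with day 14 alone found in more than 1 of them, so that day and site cannot be fully told apart. By the paper's methods the sub-clones were selected with 6-thioguanine, in medium with antibiotics where appropriate. The methods give no such selection for the parental lines, so its part in differences from them cannot be told apart. Each sub-clone was taken to stand for 1 tumor or lung, and the arrays of a sub-clone were separate cultures of it. The labels do not say whether sub-clones of the same number at different days came from 1 mouse. The group tests take such sub-clones as separate. The sample titles mark 7 arrays as removed without giving a reason, among them all 3 of AxLN tumor 1 at day 14 and all 3 of AxLN-LuM 5 at day 14. The values of these 2 sub-clones are described but left out of the group tests, and the other removed array is 1 of the 4 of MFP tumor 1.

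The cultures had the markers of the tumor cells and lacked those of most host cells. All 6 epithelial markers passed the filter, and their summed intensity was 10000 to 10940 in TV-LuM against 6226 to 8837 in all other groups. None of the 6 neutrophil, 6 T and B cell or 5 endothelial markers passed the filter, 1 of 5 leukocyte markers (Coro1a) did, and Ptprc, which defines leukocytes, stayed between 3.65 and 7.25, under the median of 8.53 to 9.15 of all probe sets on an array. Of the 7 macrophage markers 4 passed, with Cd68 and Cd14 the main ones, and their summed intensity was 260 to 538 in AxLN, 177 to 422 in MFP, 107 to 374 in AxLN-LuM, 206 to 311 in TV-LuM and 158 to 248 in the parental lines. The defining macrophage marker Adgre1 stayed at 2.46 to 4.52 throughout. Of 6 fibroblast markers 2 passed, and the sum, mainly Pdgfra, was 211 to 451 in MFP, 122 to 212 in AxLN, 63.7 to 350 in AxLN-LuM, 94.7 to 282 in TV-LuM and 118 to 160 in the parental lines.

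In the genome the neutrophil attractants lie together on chromosome 5, Ccl2, Ccl7, Ccl5 and Cxcl16 on chromosome 11, Ccl20 on chromosome 1 and Cx3cl1 on chromosome 8. RefSeq promoter windows of GRCm38.p6, each from 250 bases before to 50 bases after the gene start, were matched for 5 of the 10 genes (Cxcl1, Cxcl2, Cxcl3, Ccl20 and Cx3cl1). They are shown because Cxcl1, Cxcl3 and Ccl20 varied with each other or with Cxcl5, for which no window was matched, and Cxcl2 is shown as the neighbouring gene that varied least of the 4. The NF-kappaB consensus of 10 bases, searched on both strands, was found in 4 of the 5 windows and in 4.51% of all 32851 promoter windows of the same length. The stretches from 130 to 31 bases before the start are printed 5′ to 3′ on the plus strand, which is the strand of the genes, with the match in capitals. They lie at chr5:90891115-90891214 (Cxcl1), chr5:90903769-90903868 (Cxcl2), chr5:90785971-90786070 (Cxcl3) and chr1:83116636-83116735 (Ccl20).
Cxcl1: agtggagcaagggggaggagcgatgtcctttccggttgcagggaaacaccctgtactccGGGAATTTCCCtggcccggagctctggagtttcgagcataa
Cxcl2: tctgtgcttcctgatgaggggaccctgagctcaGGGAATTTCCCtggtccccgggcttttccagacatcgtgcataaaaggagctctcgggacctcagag
Cxcl3: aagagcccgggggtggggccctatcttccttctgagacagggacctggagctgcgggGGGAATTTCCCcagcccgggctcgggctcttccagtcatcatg
Ccl20: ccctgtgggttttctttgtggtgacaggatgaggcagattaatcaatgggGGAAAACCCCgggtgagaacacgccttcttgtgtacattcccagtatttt
The 3 CXC genes held the same 11 letters, which match the consensus on both strands with an offset of 1 base, starting 71, 97 and 73 bases before the start of Cxcl1, Cxcl2 and Cxcl3. The match of Ccl20 was on the minus strand, 80 bases before the start. Such a match describes letters only, and no binding was measured.

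Levels are given below as the log2 intensity minus the mean of the parental arrays on the same plate, averaged over the arrays of a sub-clone, so that 0 is the parental level and 1 is a 2-fold increase. Each sub-clone was compared with the 8 parental arrays in a limma fit over 11565 genes with plate as a covariate, and a gene was called at an adjusted p under 0.05. Of 130 tests of the 10 chemokines, 69 were called higher and 26 lower, where 23.9% and 24.8% of all tests over genes were called. With a change of at least 2-fold added, 46 were higher and 12 lower, against 2.49% and 1.05% of all tests. The chemokines and the gene lists further on were chosen with earlier results of these data known. Their shares set against all genes are therefore a description only. The tests against the parental lines rest on cultures of 1 sub-clone each and say how that sub-clone differed from those lines.

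**Figure D1:**
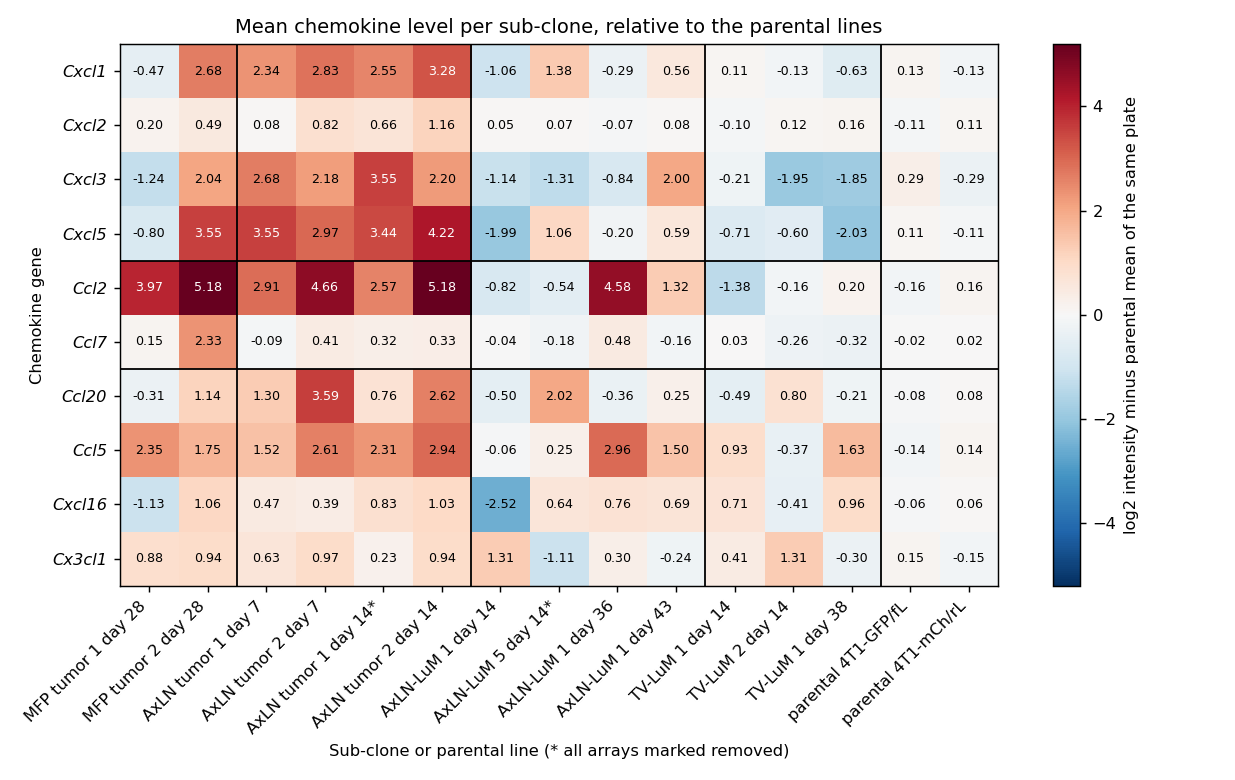
Mean log2 intensity minus the parental mean of the same plate for 10 chemokines (rows; neutrophil, monocyte and other attractants apart) in 13 sub-clones and the 2 parental lines (columns; 3 or 4 arrays each; an asterisk marks sub-clones whose arrays are all marked removed). Cxcl1, Cxcl3 and Cxcl5 are at 2.04 or more in all 4 AxLN sub-clones and in MFP tumor 2, and Ccl2 reaches 5.18.

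Cxcl1, the mouse counterpart of the growth-related oncogenes and a strong neutrophil attractant, was 5.07- to 9.73-fold above the parental level in every AxLN sub-clone. Its intensity on the 8 parental arrays was 78.8 to 116. In AxLN it stood at 2.34 (tumor 1) and 2.83 (tumor 2) at day 7 and at 2.55 and 3.28 at day 14. The 2 MFP sub-clones lay far apart, at -0.47 for tumor 1 and 2.68 for tumor 2. In AxLN-LuM the values were -1.06 (1 at day 14), 1.38 (5 at day 14), -0.29 (1 at day 36) and 0.56 (1 at day 43), and in TV-LuM they were 0.11 (1 at day 14), -0.13 (2 at day 14) and -0.63 (1 at day 38). The AxLN sub-clones and MFP tumor 2 thus formed the upper end with no overlap of arrays with any other sub-clone. Cxcl1 was called higher than the parental lines in 7 sub-clones and lower in 4, and cultures of a sub-clone differed by an SD of 0.13 against 1.55 between sub-clones. In the order of the 13 sub-clones, 10 of 12 neighbours had arrays that did not overlap, the exceptions being TV-LuM 1 at day 38, MFP tumor 1 and AxLN-LuM 1 at day 36, which ran into each other.

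Cxcl5, a neutrophil attractant made mainly by epithelial cells, was high in the same 5 sub-clones and varied over a wider range. Its parental intensity was 119 to 158, and the AxLN sub-clones reached 3.55 and 2.97 at day 7 and 3.44 and 4.22 at day 14 (tumors 1 and 2), an increase of 7.84- to 18.6-fold. MFP tumor 2 was at 3.55 and MFP tumor 1 at -0.80. The AxLN-LuM sub-clones were at -1.99, 1.06, -0.20 and 0.59 in the order given for Cxcl1, and the TV-LuM sub-clones at -0.71, -0.60 and -2.03. Every one of the 13 sub-clones was called, 7 higher and 6 lower, and all 3 TV-LuM sub-clones were among the lower ones. The lowest and the highest sub-clone, TV-LuM 1 at day 38 and AxLN tumor 2 at day 14, differed 76.0-fold, and the SD between cultures was 0.09 against 2.27 between sub-clones, the third highest between-sub-clone SD of the 11565 genes.

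Cxcl3, a further CXCR2 ligand, was dim in the parental lines (6.55 to 19.2) and below the median of all probe sets in several sub-clones. It stood at 2.68 and 2.18 at day 7 and 3.55 and 2.20 at day 14 in AxLN, and at -1.24 and 2.04 in MFP. Among the lung sub-clones AxLN-LuM 1 at day 43 was high, at 2.00, whereas the other AxLN-LuM sub-clones were at -1.14, -1.31 and -0.84 and the TV-LuM sub-clones at -0.21, -1.95 and -1.85. Cxcl3 was called higher in 6 sub-clones and lower in 5. The 6 high sub-clones did not overlap with the 7 others in any array, but within the low ones the cultures varied by up to 1.08 (SD, n = 3), and values there are close to the background of the arrays. Apart from TV-LuM 1 at day 14 (8.75), the low sub-clones had geometric means of 3.44 to 5.64. The limit of the filter was 8.61 as an intensity, so differences of Cxcl3 from these sub-clones rest on values under it.

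Cxcl2, which shares CXCR2 with the others and is a major product of activated macrophages, was the least variable of the 4. Its parental intensity was 10.2 to 17.2. It was called higher in 3 AxLN sub-clones, tumor 2 at day 7 (0.82), tumor 1 at day 14 (0.66) and tumor 2 at day 14 (1.16), and in no sub-clone lower. The other 10 sub-clones lay between -0.10 and 0.49, and the arrays of all 12 neighbouring pairs overlapped.

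**Figure D2:**
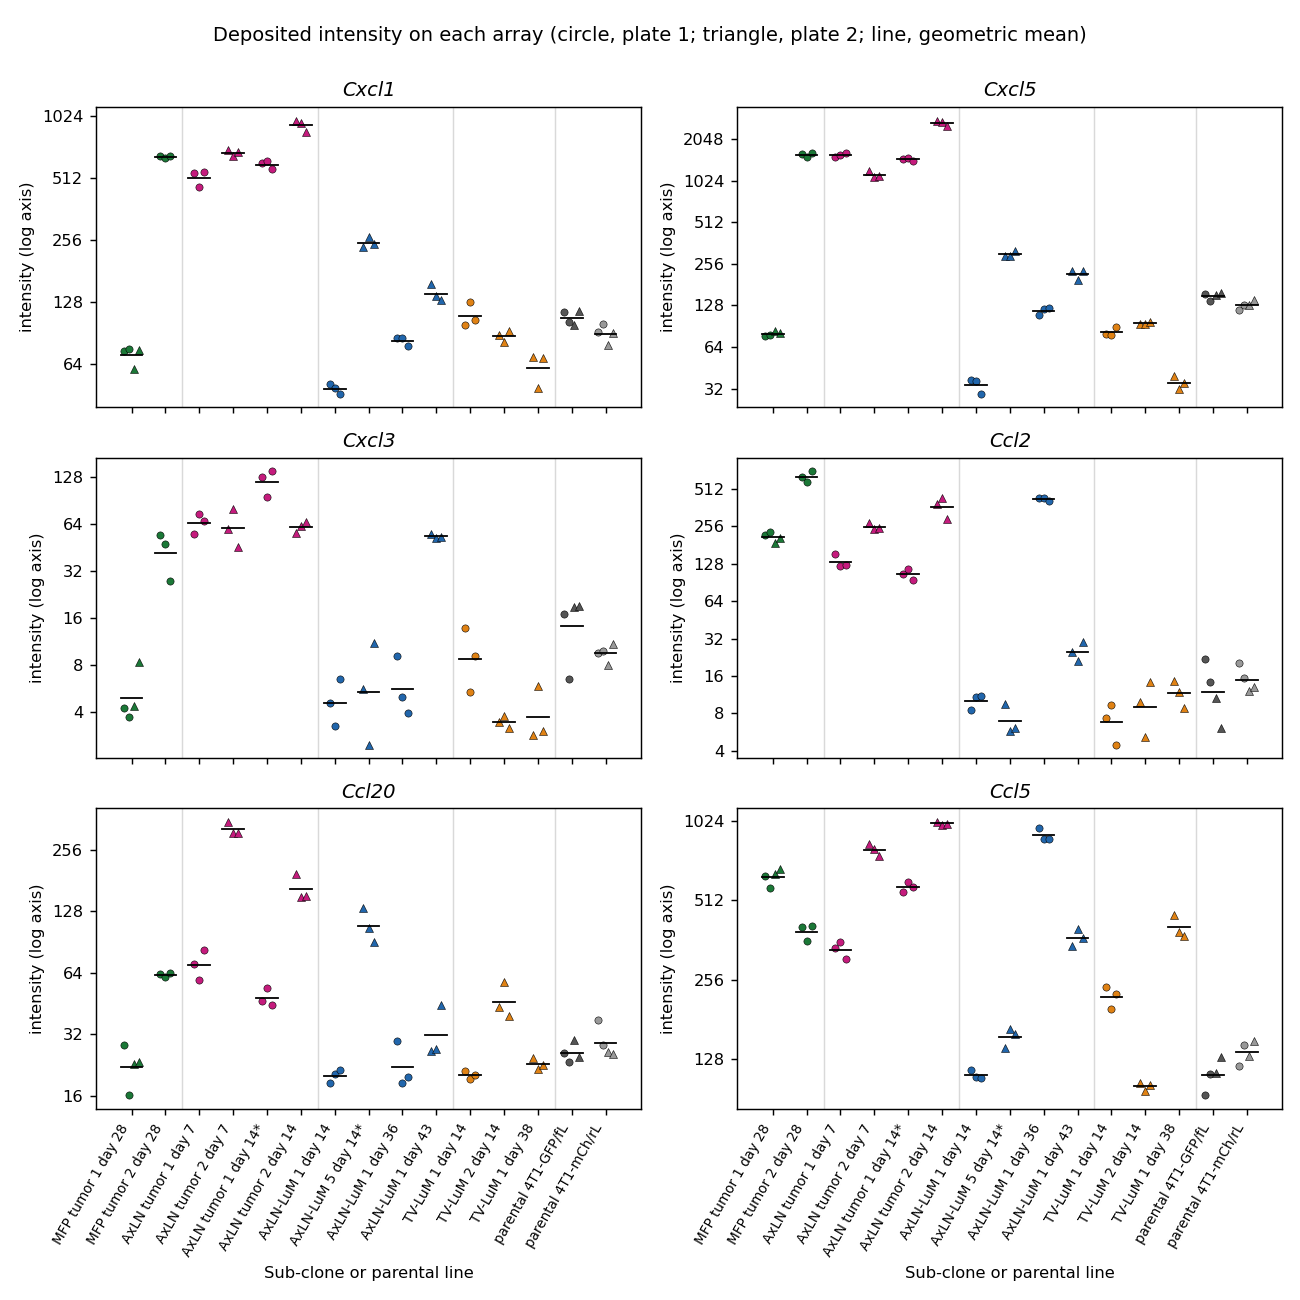
Deposited intensity (log axis) of Cxcl1, Cxcl5, Cxcl3, Ccl2, Ccl20 and Ccl5 on each of 48 arrays, by sub-clone and parental line; circles are plate 1, triangles plate 2, lines the geometric mean, and asterisks sub-clones whose arrays are all marked removed. Cxcl5 runs from 29.4 to 2785, and arrays of a sub-clone lie close together except where intensities are low, as for Cxcl3 and Ccl2 in the lung sub-clones.

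Ccl2, the main monocyte attractant, had the widest spread, from levels near background to a 36.2-fold increase. On the parental arrays its intensity was 6.13 to 22.1, near the median of all probe sets. Both MFP sub-clones were high, at 3.97 (tumor 1) and 5.18 (tumor 2), and the AxLN sub-clones were at 2.91 and 4.66 at day 7 and 2.57 and 5.18 at day 14. AxLN-LuM 1 at day 36 was as high, at 4.58, AxLN-LuM 1 at day 43 was at 1.32, and the 2 AxLN-LuM sub-clones of day 14 were at -0.82 (1) and -0.54 (5). The TV-LuM sub-clones were at -1.38 (1 at day 14), -0.16 (2 at day 14) and 0.20 (1 at day 38). Ccl2 was called higher in 8 sub-clones and lower in 3. The highest sub-clones were AxLN tumor 2 at day 14 and MFP tumor 2, whose arrays overlapped relative to the parental lines of their plates. Their intensities did not overlap, at 292.6 to 432.5 (plate 2) and 581.7 to 708.3 (plate 1). MFP tumor 1, with arrays on both plates, was at 3.66 on plate 1 and 4.29 on plate 2. The SD of Ccl2 between sub-clones, 2.47, was the second highest of all genes tested, with an SD of 0.33 between cultures. Since the parental values are near background, these ratios depend on that background.

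Ccl7, the neighbour of Ccl2 on chromosome 11 with a role like that of Ccl2, was high in a single sub-clone. In MFP tumor 2 it stood at 2.33, with intensities of 45.2 to 46.7 on the 3 arrays against 6.58 to 13.2 on the parental arrays. The other 12 sub-clones lay between -0.32 and 0.48 and none was called. Ccl2 was called higher in 7 sub-clones in which Ccl7 was not called.

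Ccl20, which draws immature dendritic cells and lymphocytes that carry CCR6, was highest in the sub-clones of AxLN tumor 2. It stood at 3.59 there at day 7 and at 2.62 at day 14, and at 1.30 and 0.76 in AxLN tumor 1, from a parental intensity of 23.4 to 37.7. MFP tumor 2 was at 1.14 and MFP tumor 1 at -0.31. Among the lung sub-clones AxLN-LuM 5 at day 14 was at 2.02 and TV-LuM 2 at day 14 at 0.80, and the other 5 were between -0.50 and 0.25. Ccl20 was called higher in 7 sub-clones and lower in 2. The arrays of AxLN tumor 1 were all on plate 1 and those of AxLN tumor 2 all on plate 2, so that tumor number and plate cannot be told apart beyond the parental baseline of each plate.

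Ccl5, which attracts T cells and monocytes, was called higher in 11 of 13 sub-clones. From a parental intensity of 93.3 to 150.2 it rose to 2.35 and 1.75 in MFP tumors 1 and 2, to 1.52 and 2.61 (day 7) and 2.31 and 2.94 (day 14) in AxLN, and to 2.96 in AxLN-LuM 1 at day 36. AxLN-LuM 1 at day 43 was at 1.50, AxLN-LuM 5 at 0.25 and AxLN-LuM 1 at day 14, which was not called, at -0.06. The TV-LuM sub-clones spread from 1.63 (1 at day 38) over 0.93 (1 at day 14) to -0.37 (2 at day 14), the only one called lower. The top of the order, AxLN tumor 2 at day 14 and AxLN-LuM 1 at day 36, overlapped in their arrays.

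Of the 2 membrane-bound chemokines, Cxcl16 was called in every sub-clone, 10 higher and 3 lower. Its parental intensity was 878 to 1028 and cultures of a sub-clone differed by only 0.04 (SD). The high sub-clones were all within 0.39 to 1.06. The low ones were TV-LuM 2 at day 14 (-0.41), MFP tumor 1 (-1.13) and AxLN-LuM 1 at day 14 (-2.52), where the 3 arrays read 156 to 164. Cx3cl1, from a parental intensity of 90.9 to 129, was called higher in 9 sub-clones and lower in 2. It was highest in AxLN-LuM 1 at day 14 (1.31) and TV-LuM 2 at day 14 (1.31), 2 of the 3 sub-clones with low Cxcl16, and lowest in AxLN-LuM 5 at day 14 (-1.11).

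Read by sub-clone, the number of chemokines called higher was largest in the AxLN sub-clones and MFP tumor 2. In AxLN tumor 2, 9 of 10 were called higher and 0 lower at day 7, against 25.0% and 30.0% of all genes, and again 9 and 0 at day 14, against 25.0% and 26.8%. In AxLN tumor 1 the numbers were 8 and 0 at day 7 (22.7% and 26.2% of all genes) and 8 and 0 at day 14 (18.1% and 15.0%). MFP tumor 2 had 9 higher and 0 lower (19.7% and 20.5%), whereas MFP tumor 1 had 3 higher, which were Ccl2, Ccl5 and Cx3cl1, and 4 lower (26.1% and 28.1%).

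The lung sub-clones were mixed. AxLN-LuM 1 at day 14 had 1 chemokine higher and 6 lower (24.1% and 22.3% of all genes), AxLN-LuM 5 at day 14 had 5 and 3 (36.2% and 27.2%), AxLN-LuM 1 at day 36 had 4 and 2 (22.9% and 24.7%), and AxLN-LuM 1 at day 43 had 6 and 0 (19.6% and 23.4%). For TV-LuM the numbers were 3 higher and 3 lower in 1 at day 14 (20.1% and 22.2%), 2 and 4 in 2 at day 14 (27.1% and 27.5%) and 2 and 4 in 1 at day 38 (23.9% and 28.7%). In TV-LuM, 7 of 30 tests were thus called higher, near the share over all genes.

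The sum of the 7 macrophage markers went along with these counts in part, and its part in them was not tested. It was 403 to 422 in MFP tumor 2 against 177 to 188 in MFP tumor 1, 522 to 538 in AxLN tumor 2 at day 14 and 107 to 119, the lowest, in AxLN-LuM 1 at day 14. It was 264 to 286 in AxLN-LuM 1 at day 36, close to the 260 to 288 of AxLN tumor 2 at day 7, although Cxcl1 was at -0.29 in the first and 2.83 in the second. Adgre1, Lyz2 and Mrc1 were under the filter, which rests on the mean over all arrays. Lyz2 still reached 21.06 in AxLN tumor 2 at day 14, and Mrc1 11.45 in AxLN tumor 1 at day 14. Csf1r, which passed, reached 36.99 in TV-LuM 1 at day 38.

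Neutrophil and monocyte attractants did not keep to one order across the sub-clones. The median level of the 4 neutrophil attractants exceeded the median of the 2 monocyte attractants in 5 of 13 sub-clones. It was above in AxLN tumor 1, by 1.10 at day 7 and 1.55 at day 14, in AxLN-LuM 5 at day 14 (0.92) and in TV-LuM 1 at day 14 (0.52), while in AxLN-LuM 1 at day 43, also counted, the difference rounded to 0.00. In both AxLN tumor 2 sub-clones the medians were level, with differences of -0.03 and -0.01, and with each sub-clone's own parental line as baseline the number of sub-clones became 7. The monocyte median was above in MFP tumor 1 (-2.70), MFP tumor 2 (-1.40), AxLN-LuM 1 at day 36 (-2.78), TV-LuM 1 at day 38 (-1.18), AxLN-LuM 1 at day 14 (-0.67) and TV-LuM 2 at day 14 (-0.15). The monocyte median rests on Ccl2 and Ccl7, and Ccl7 was near background in 12 sub-clones. Ccl2 alone was above the neutrophil median in AxLN tumor 2, at 4.66 against 2.51 (day 7) and 5.18 against 2.74 (day 14). It was also above in AxLN tumor 1 at day 7 (2.91 against 2.51) and AxLN-LuM 1 at day 43 (1.32 against 0.58). Ccl2 stayed below in AxLN tumor 1 at day 14 (2.57 against 3.0), AxLN-LuM 5 (-0.54 against 0.56) and TV-LuM 1 at day 14 (-1.38 against -0.15).

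The levels of Cxcl1 and Ccl2 differed likewise from one sub-clone to another. In MFP tumor 1 and AxLN-LuM 1 at day 36, Ccl2 was at 3.97 and 4.58 while Cxcl1 was called lower, so that Cxcl1 minus Ccl2 was -4.44 and -4.87. In AxLN-LuM 5 at day 14 the 2 genes stood the other way round, with Cxcl1 2.61-fold above and Ccl2 called lower, a difference of 1.93. In the 4 AxLN sub-clones and MFP tumor 2 both were high, and in AxLN-LuM 1 at day 14 both were called lower.

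**Figure D3:**
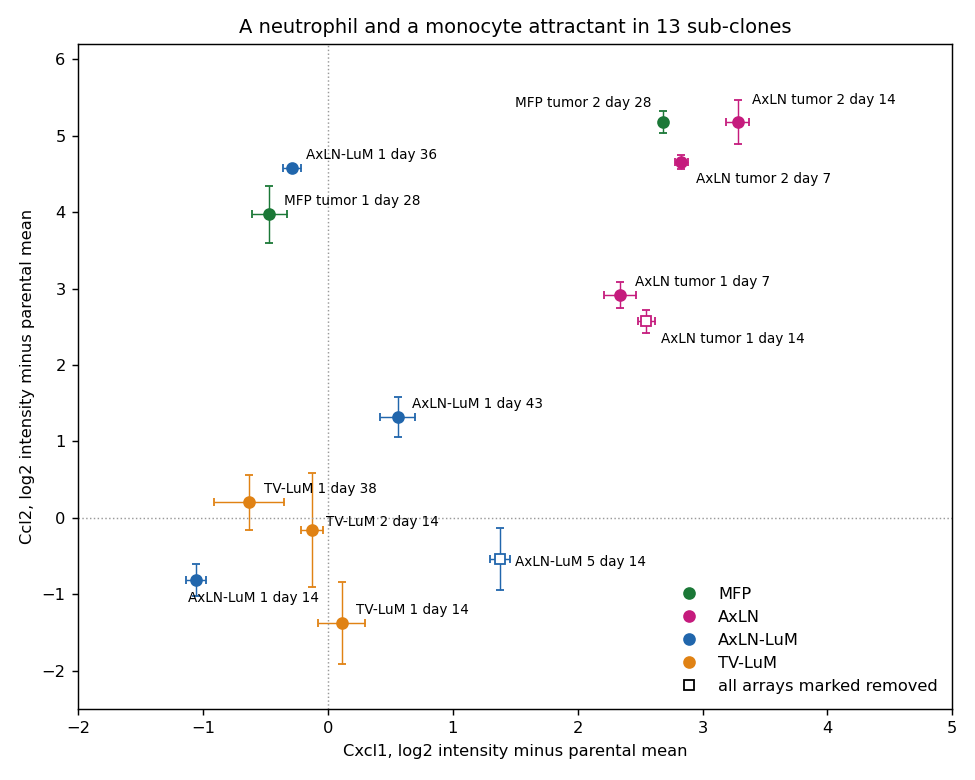
Cxcl1 (x) against Ccl2 (y), each as log2 intensity minus the parental mean, in 13 sub-clones; bars are the SD over 3 or 4 arrays and open squares are sub-clones whose arrays are all marked removed. The AxLN sub-clones and MFP tumor 2 lie at the upper right, whereas MFP tumor 1 and AxLN-LuM 1 at day 36 have high Ccl2 with Cxcl1 at -0.47 and -0.29.

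Across the 13 sub-clones some of the chemokines varied together. As a description, and with sub-clones sharing plates and the parental baseline, Pearson's r between Cxcl1 and Cxcl5 was 0.98 (Spearman's rho 0.92), and it was 0.99 among the 6 sub-clones with arrays on plate 1 only and 0.99 among the 6 on plate 2 only. Cxcl3 followed them with r of 0.83 (Cxcl1) and 0.87 (Cxcl5), and Ccl20 with 0.82 and 0.74. Within plates 1 and 2 the r of Cxcl1 was 0.96 and 0.75 with Cxcl3 and 0.95 and 0.92 with Ccl20. For Ccl2, r was 0.84 with Ccl5, 0.65 with Cxcl5, 0.62 with its neighbour Ccl7 and 0.59 with Cxcl1. That order did not hold within plate 2, where r was 0.89, 0.85, 0.95 and 0.86, and within plate 1 it was 0.78, 0.66, 0.65 and 0.57. Over all 13 sub-clones Cx3cl1 followed none of them, with r of 0.03 to 0.32 to 8 of the others and -0.49 to Cxcl16. The plates differed here. Within plates 1 and 2 the r of Cx3cl1 was -0.75 and 0.23 with Ccl5 and -0.75 and -0.49 with Cxcl16. With Cxcl2 it was -0.06 and 0.57, and with Ccl2 -0.22 and 0.55.

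Among all 11565 genes tested, the 5 with the highest r to Cxcl1 were Cxcl5, Nos2 (0.94), Il1a (0.91), Nfkbiz (0.91) and Ptpn22 (0.90). Nos2 encodes the inducible nitric oxide synthase and ranged from -0.19 to 4.62. For Cxcl5 they were Cxcl1, Il1a (0.93), Ptpn22 (0.92), Nos2 (0.92) and Zc3h12a (0.91), and Il1a, an interleukin that acts through the IL-1 receptor, spanned -5.05 to 3.32. For Ccl2 the closest were Neurl3 (0.91), Plscr2 (0.90), Ifit2 (0.90), an interferon-induced gene, Adamts8 (0.89) and Ankrd1 (0.87). For Ccl20 they were Ifnar2 (0.93), a subunit of the type I interferon receptor, Itga2b (0.86), Zbtb48 (0.86), Lcn2 (0.85), an iron-sequestering protein that ranged from -0.16 to 5.91, and Irak2 (0.85), a kinase of the IL-1 receptor pathway. Some of these genes varied little, such as Zbtb48 (-0.1 to 0.28), Itga2b (-0.46 to 0.39) and Ankrd1 (-0.69 to 0.3).

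The groups were then compared with the sub-clone as replicate, over the 11 sub-clones not marked removed (2 MFP, 3 AxLN, 3 AxLN-LuM and 3 TV-LuM). In limma with adjustment over all 11565 genes, 0 genes were called in each of the 6 comparisons, which is 0% of all genes and 0 of the 10 chemokines. At an unadjusted p under 0.05 stood 2 chemokines for AxLN minus MFP, 6 for AxLN-LuM minus AxLN, 2 for AxLN-LuM minus MFP, 2 for TV-LuM minus MFP, 7 for TV-LuM minus AxLN and 0 for TV-LuM minus AxLN-LuM, where 6.26%, 11.2%, 3.48%, 8.87%, 11.3% and 10.2% of all genes did. In a fit on single arrays with a random block for sub-clones, 3 chemokines were called for AxLN-LuM minus AxLN (Cxcl1, Cxcl5 and Ccl20), where 4.1% of all genes were, and 6 for TV-LuM minus AxLN (Cxcl1, Cxcl3, Cxcl5, Ccl2, Ccl20 and Ccl5), where 3.84% were. That fit uses 1 correlation between arrays of a sub-clone for all genes. The differences given next are sizes with their errors that did not pass the test with the sub-clone as replicate.

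AxLN against AxLN-LuM asks how lymph node tumors differ from lung metastases of mice injected in the node. The sub-clones tested were of days 7 and 14 in AxLN and of days 14, 36 and 43 in AxLN-LuM. All 10 chemokines had a lower mean in AxLN-LuM, the median of the 10 log2 differences being -1.67 against 0.02 over all genes. For Cxcl16 the lower mean rested on AxLN-LuM 1 at day 14 (-2.52). AxLN-LuM 1 at day 36 (0.76) and at day 43 (0.69) were above the AxLN mean of 0.63. Within plate 1, Ccl7 (0.31) and Cx3cl1 (0.17) had the higher value in AxLN-LuM. Cxcl5 differed by -4.11 ± 1.00 (SE, 3 and 3 sub-clones, limma adjusted p = 0.319), Cxcl1 by -3.08 ± 0.69 (adjusted p = 0.283), Ccl20 by -2.71 ± 0.58 (adjusted p = 0.283), Ccl2 by -2.55 ± 1.15 (adjusted p = 0.444) and Cxcl3 by -2.34 ± 0.95 (adjusted p = 0.407). The 3 AxLN sub-clones lay above all 3 AxLN-LuM sub-clones for 5 chemokines, the 4 neutrophil attractants and Ccl20, where 8.12% of all genes had AxLN-LuM wholly below AxLN. For Cxcl2 the nearest sub-clones, AxLN tumor 1 at day 7 and AxLN-LuM 1 at day 43, were both at 0.08 after rounding and their arrays overlapped. Arrays also overlapped for Cxcl3, between AxLN-LuM 1 at day 43 (1.97 to 2.06) and AxLN tumor 2 at day 7 (1.78 to 2.58). With the sub-clones marked removed the differences were -3.68 (Cxcl5), -2.60 (Cxcl1) and -1.72 (Ccl20) with limma adjusted p = 1.0 for each, and 4 chemokines, without Ccl20, stayed apart. The share of all genes that stayed apart with those sub-clones was not worked out. The difference of Ccl2 depended on single lung sub-clones, at -1.30 without AxLN-LuM 1 of day 14 and -4.0 without that of day 36. Within plates 1 and 2 the difference of Cxcl1 was -3.02 and -2.50 and that of Ccl20 -1.73 and -2.86, while that of Cxcl3 was -3.67 and -0.19.

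AxLN against TV-LuM compares tumors of the node with lung colonies seeded through the blood. All 10 chemokines again had the lower mean in the lung group, with a median of -2.05 against 0.00 over all genes. Ccl2 differed by -4.70 ± 1.15 (limma adjusted p = 0.304), Cxcl5 by -4.69 ± 1.00 (0.304), Cxcl3 by -3.69 ± 0.95 (0.304), Cxcl1 by -3.03 ± 0.69 (0.304), Ccl20 by -2.47 ± 0.58 (0.304) and Ccl5 by -1.63 ± 0.73 (0.440). The groups of 3 and 3 sub-clones did not overlap for Cxcl1, Cxcl3, Cxcl5, Ccl2 and Ccl20, against 9.4% of all genes with TV-LuM wholly below AxLN, and Ccl20 overlapped once the sub-clone marked removed was included. For Ccl20, arrays of TV-LuM 2 at day 14 (0.56 to 1.11) and AxLN tumor 1 at day 7 (1.05 to 1.54) overlapped without it. Within plates 1 and 2 Ccl2 differed by -4.29 and -4.90, Cxcl5 by -4.27 and -4.91, Cxcl3 by -2.89 and -4.09, Cxcl1 by -2.23 and -3.44, Ccl20 by -1.79 and -2.82 and Ccl5 by -0.59 and -2.15. Of the chemokines with smaller differences, Cxcl16 (0.24) and Ccl7 (0.12) had the higher value in TV-LuM within plate 1. Ccl5 differed by -1.08 without TV-LuM 2 of day 14. This comparison and the last share the AxLN sub-clones.

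Between AxLN and MFP the differences hung on which MFP sub-clone was taken. AxLN was above MFP by 2.21 ± 1.12 for Cxcl5, 2.09 ± 0.65 for Ccl20, 1.95 ± 1.06 for Cxcl3 and 1.72 ± 0.77 for Cxcl1, and below it by 1.02 ± 0.50 for Ccl7 (log2, SE, limma adjusted p = 0.759 for each). Without MFP tumor 1 the differences were 0.03 for Cxcl5, 1.37 for Ccl20, 0.31 for Cxcl3, 0.14 for Cxcl1 and -2.12 for Ccl7, and without MFP tumor 2 they were 4.38, 2.81, 3.60, 3.29 and 0.07. The sub-clones did not overlap for Cxcl3 and Ccl20, where 14.5% of all genes had AxLN wholly above MFP, and with the sub-clone marked removed for Cxcl3 alone. The share of all genes was worked out only without that sub-clone. These 2 of 10 chemokines were near that share. MFP tumor 2 was close to the lowest AxLN sub-clone for Cxcl3 (2.04 and 2.18) and Ccl20 (1.14 and 1.3), and their arrays overlapped for both genes. For Ccl2 the means were close, 4.25 in AxLN and 4.57 in MFP.

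The lung groups against MFP differed most in Ccl2. TV-LuM was below MFP by -5.02 ± 1.28 (limma adjusted p = 0.494), with values of -5.80 and -4.27 within plates 1 and 2, and Ccl2, Ccl7, Ccl5 and Cxcl2 had TV-LuM wholly below MFP, where 14.0% of all genes did. Arrays of the nearest sub-clones overlapped for Cxcl2 (0.16 and 0.2), Ccl7 (0.03 and 0.15) and Ccl5 (1.63 and 1.75), but not for Ccl2. The other differences of at least 1 were -2.49 ± 1.12 (Cxcl5, adjusted p = 0.563), -1.73 ± 1.06 (Cxcl3, 0.648), -1.43 ± 0.50 (Ccl7, 0.494), -1.32 ± 0.77 (Cxcl1, 0.633) and -1.32 ± 0.82 (Ccl5, 0.652). Without MFP tumor 1 these became -4.66, -3.37, -2.52, -2.89 and -1.02 in the same order, and without MFP tumor 2 they were -0.31, -0.09, -0.33, 0.26 and -1.63. AxLN-LuM minus MFP was -2.88 ± 1.28 for Ccl2, -1.91 ± 1.12 for Cxcl5, -1.37 ± 0.77 for Cxcl1 and -1.15 ± 0.50 for Ccl7 (limma adjusted p = 1.0 for each), and only Cxcl2 did not overlap, against 7.57% of all genes. Without MFP tumor 2 that difference was 0.27 for Cxcl5, 0.21 for Cxcl1 and -0.06 for Ccl7, and without MFP tumor 1 it was -4.08, -2.94 and -2.24. For Ccl2 it was -1.62 without AxLN-LuM 1 of day 14 and -4.32 without that of day 36. For Cxcl2, arrays of the nearest sub-clones of AxLN-LuM and MFP overlapped. AxLN-LuM 1 at day 43 ran from -0.09 to 0.3 and MFP tumor 1 from -0.1 to 0.43. Between the 2 lung groups the differences of at least 1 were -2.14 ± 1.15 for Ccl2 (adjusted p = 0.546) and -1.34 ± 0.95 for Cxcl3 (adjusted p = 0.655), both lower in TV-LuM, with 0.78 and -3.90 for Cxcl3 within plates 1 and 2, and -0.70 for Ccl2 without AxLN-LuM 1 of day 36, and all 10 chemokines overlapped. The share of all genes that overlapped between the lung groups was not worked out.

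**Figure D4:**
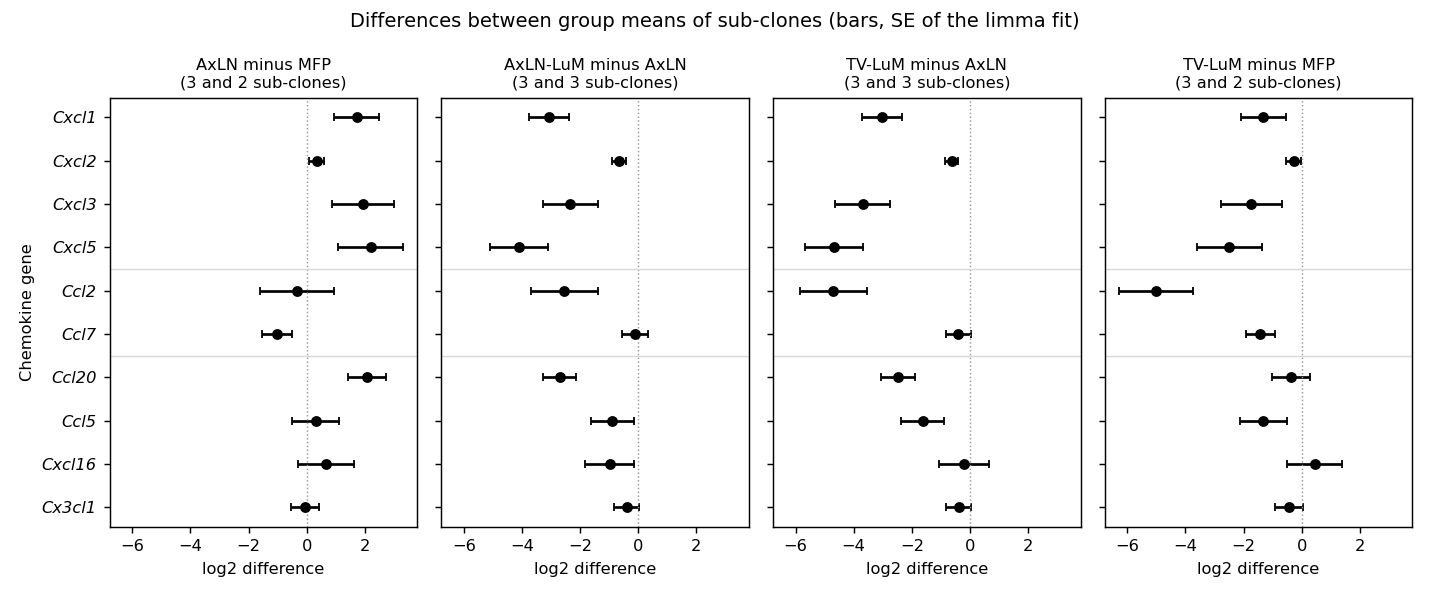
Log2 difference between group means of sub-clones (points) with the SE of the limma fit (bars) for 10 chemokines in 4 comparisons, over the 11 sub-clones not marked removed. Cxcl5 is at -4.11 and -4.69 in the comparisons of the lung groups with AxLN and Ccl2 at -5.02 for TV-LuM minus MFP; none passed an adjusted p of 0.05.

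Of the 10 chemokines 0 were called between 4T1-mCh/rL and 4T1-GFP/fL, with plate as a covariate, where 12.8% of all genes were (limma, 4 and 4 arrays), and 4 had an unadjusted p under 0.05, as did 30.0% of all genes. The differences ran from -0.57 ± 0.31 for Cxcl3 (SE, adjusted p = 0.27) to 0.32 ± 0.24 for Ccl2 (adjusted p = 0.409), and Cxcl5 at -0.22 ± 0.06 had the lowest adjusted p, 0.0552. All were smaller than the SD between sub-clones of the same gene.

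Of the 28 other chemokines sought, 25 were on the arrays and 8 passed the filter, with 28 of 104 tests against the parental lines called higher and 15 lower, which is 26.9% and 14.4% where 23.9% and 24.8% of all tests over genes were. Those that varied most were Ppbp, a further CXCR2 ligand stored in platelets (-1.57 to 2.64, highest in AxLN tumor 1 at day 14), Ccl17, which attracts CCR4-bearing T cells (-0.16 to 3.90, highest in MFP tumor 2), Cxcl10, an interferon-induced attractant of T cells (-0.46 to 2.76, called higher in 9 sub-clones) and Ccl9 (-0.38 to 2.03). Ppbp had an r of 0.82 with Cxcl1.

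Of 22 chemokine receptors on the arrays 15 were under the filter, and 7 were tested, with 11 of 91 tests higher (12.1%) and 10 lower (11%). Cxcr3 varied most, from -2.01 in AxLN-LuM 5 at day 14 to 2.47 in AxLN-LuM 1 at day 14. Ackr3, which takes up CXCL12, was called lower in 5 sub-clones and fell to -2.18 in TV-LuM 1 at day 38, and Cxcr4 stayed within -0.29 to 0.68.

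Among 16 NF-kappaB factors and feedback genes, all tested, 93 of 208 tests were called higher and 58 lower, which is 44.7% and 27.9% against 23.9% and 24.8% over all genes. Nfkbiz, a nuclear cofactor of NF-kappaB, ranged from -0.64 in TV-LuM 2 at day 14 to 1.90 in AxLN tumor 2 at day 14, and its means were 1.51 in AxLN, 0.64 in MFP, 0.01 in AxLN-LuM and -0.15 in TV-LuM. Zc3h12a, a ribonuclease that degrades cytokine transcripts, had an r of 0.89 with Cxcl1 and means of 1.30, 0.85, -0.31 and -0.62 in the same order. Ikbke and Bcl3 were called higher in 9 and 12 of 13 sub-clones. AxLN-LuM minus AxLN was -1.50 ± 0.47 for Nfkbiz (limma adjusted p = 0.35) and -1.61 ± 0.39 for Zc3h12a (adjusted p = 0.319), and the median over the 16 genes was -0.32 against 0.02 over all genes.

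Of 17 upstream cytokines and receptors 15 were tested, with 101 of 195 tests higher (51.8%) and 40 lower (20.5%). Il1a was called higher in 7 sub-clones and lower in 5, from -5.05 in AxLN-LuM 1 at day 14 to 3.32 in AxLN tumor 2 at day 14. Csf2 and Csf3, the growth factors of granulocytes and macrophages and of granulocytes, ranged from -0.51 to 3.97 and from -1.18 to 2.56. Their means were 3.29 and 1.85 in AxLN, 1.96 and 2.03 in MFP, 0.03 and -0.27 in AxLN-LuM and 0.34 and -0.62 in TV-LuM. AxLN-LuM minus AxLN was -4.10 ± 1.57 for Il1a (limma adjusted p = 0.401), -3.25 ± 0.64 for Csf2 (0.283) and -2.11 ± 0.37 for Csf3 (0.283). Tnf, with a range of -0.34 to 2.24, was called higher in 8 sub-clones. Of the 4 genes for the proteases that release membrane chemokines and their regulators, 23 of 52 tests were called higher (44.2%) and 8 lower (15.4%), 0 of them past 2-fold. Of the proteases in this list, Adam17 ranged from -0.58 to 0.63 and Adam10 from -0.26 to 0.49.

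**Figure D5:**
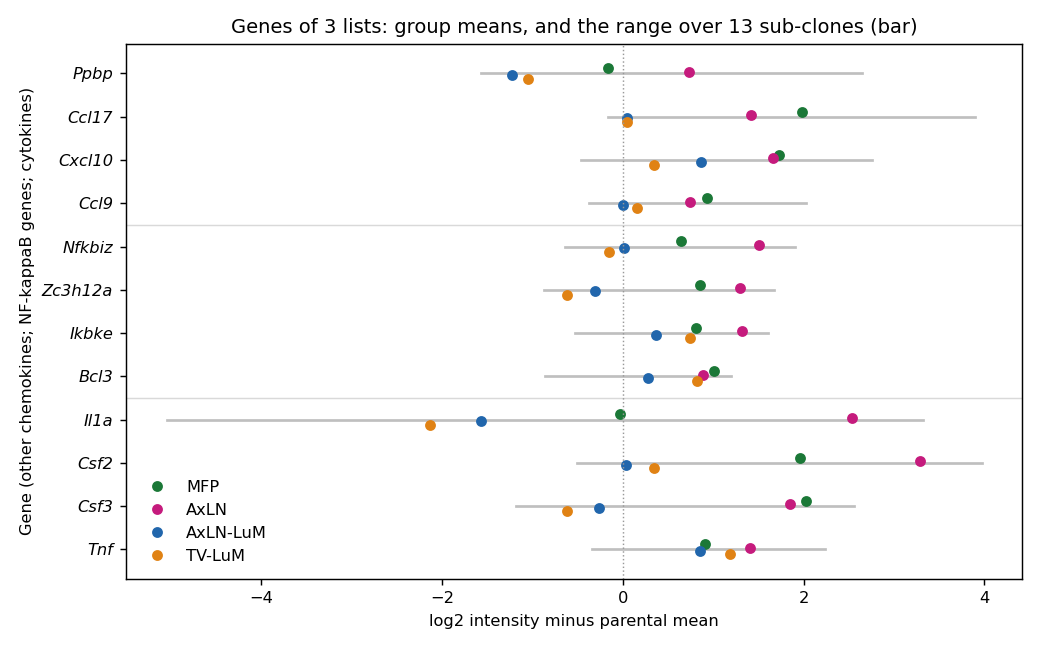
Log2 intensity minus the parental mean for the 4 genes of each of 3 lists with the widest range; grey bars span the 13 sub-clones and points are group means over the 11 sub-clones not marked removed. Il1a spans -5.05 to 3.32, and Csf2 has a mean of 3.29 in AxLN and of 0.03 in AxLN-LuM.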

How the data were processed

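Total RNA from cultured cells was hybridized to Affymetrix Mouse Gene 2.1 ST arrays. RMA summaries were made by the authors in Affymetrix Expression Console (version and genome build not given in the sources used here), who then joined 2 plates after scaling by the ratio of their cumulative expression. The values they deposited are linear intensities (1.11 to 10561.01; array medians 8.53 to 9.15). The number of arrays limits the precision. Log2 was taken here of the deposited values. Of 41345 probe sets, 23521 carry 1 symbol, 1820 several and 16004 none here; 23328 were matched by Entrez ID, giving 18964 protein-coding genes, the brightest probe set standing for each. The plate, 24 arrays each, follows the column order and was checked on the 6 arrays labelled plate 2. Genes with a mean log2 of at least 3.106, the 50th percentile of all probe sets, were tested (11565) with limma 3.58.1 in R 4.3.3 with Benjamini-Hochberg adjustment: groups on sub-clone means, parental lines and single sub-clones on arrays. Where single arrays are the replicates, p-values measure the spread between cultures. The fits were tested on simulated data. Python 3.11.15 and matplotlib 3.10.9 made the rest.

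The 10 chemokines, lists and markers were chosen with earlier results of these data known. Group differences are named where at least 1 (log2) or called, for Cxcl1, Cxcl5, Ccl2 and Ccl20 the 5 genes with the highest r, and up to 4 genes with the widest range of each list. The sequences are from RefSeq. Alternatives covered the sub-clones, baseline, plate, normalization, filter, probe set and replicate.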

Additional observations from a re-analysis of the deposited data

Results flagged for a closer look

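In sets of 4 sub-clones or arrays, 5 of 50 values lay farther from the rest than the 95% limit of Dixon's test, where chance gives about 1 in 20. In AxLN-LuM, Cxcl16 in the sub-clone 1 of day 14 was at -2.52 with the other 3 between 0.64 and 0.76, and Cxcl3 in the sub-clone 1 of day 43 was at 2.00 with the others between -1.31 and -0.84. Among the 4 arrays of 4T1-mCh/rL, Cxcl2 was at -0.25 on 1 array of plate 1 (others 0.21 to 0.26), Ccl20 at 0.41 on another array of plate 1 (others -0.05 to 0.00) and Cx3cl1 at -0.20 on 1 array of plate 2 (others -0.13).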

How the results depend on the processing

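Of 28 group differences of at least 1 (log2), 23 kept their sign under every alternative, and 677 of 686 values did. Without MFP tumor 2, AxLN-LuM minus MFP became 0.21 for Cxcl1 and 0.27 for Cxcl5, TV-LuM minus MFP 0.26 for Cxcl1 and AxLN minus MFP 0.07 for Ccl7. Without MFP tumor 1 they were -2.94, -4.08, -2.89 and -2.12. Within plate 2 the same differences were 1.06, 1.40, 0.12 and 0.53, and within plate 1 TV-LuM minus AxLN-LuM was 0.78 for Cxcl3. No chemokine was called in the group comparisons with the sub-clone as replicate, also with all 13 sub-clones, another baseline, plate as covariate, quantile normalization or any sub-clone left out. With single arrays as replicates 5 were called for AxLN minus MFP, 6 for AxLN-LuM minus AxLN, 2 for AxLN-LuM minus MFP, 4 for TV-LuM minus MFP, 7 for TV-LuM minus AxLN and 1 for TV-LuM minus AxLN-LuM, where 22.4%, 28.8%, 9.9%, 27.1%, 27.2% and 25.1% of all genes were. That fit counts cultures of 1 sub-clone as replicates of a group. With a random block for sub-clones, 1, 3, 0, 2, 6 and 0 were called, against 0.986%, 4.1%, 0.285%, 1.97%, 3.84% and 2.47% of all genes.

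The replicate number as a block gave 5, 6, 2, 4, 7 and 1 in the same order, against 19.8%, 27.5%, 8.29%, 24.6%, 25.8% and 23.8% of all genes. Correlations of same-numbered arrays of different sub-clones were -0.08 to 0.06 over 90 pairs, all under the limit of 0.1, so the numbers were not taken as pairing the samples. As a hint from the data only, 26 of 36 arrays were closest to their own number, and the median correlation was 0.01 for the same and -0.01 for different numbers. Between the parental lines 1 chemokine was called with the block (Ccl5) and 1 with quantile normalization (Cxcl5), and 0 to 1 with 1 array left out (Cx3cl1 without replicate 1 and Cxcl3 without replicate 2 of 4T1-GFP/fL on plate 1). The main parental fit called 12.8% of all genes, and the shares under these alternatives are not given here. Against the parental lines 65 to 70 tests were called higher and 20 to 27 lower, and 46 higher and 12 lower at 2-fold or more. Sub-clones with the neutrophil median above the monocyte median numbered 5 to 7. Ccl7, Cxcl2, and Cxcl3 and Ccl2 where low, are near the array background, so their ratios are less certain.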
